A study of Mus musculus with 24 samples.

Results

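Cyp2f2, Gls2, Etnppl, Aldh1b1, Hsd17b6 and Pigr are genes whose RNA is known to be richest in hepatocytes near the portal vein, and they were taken by symbol from the 55421 genes of the count table. All 6 had enough counts to be among the 13583 genes tested. Each was measured in RNA of hepatocytes isolated from 24 male mice, 6 in each of 4 groups, which were young or old and fed a normal diet (ND) or a high-fat diet (HFD). Per the labels, the young mice were C57BL/6N of 6 months and the old mice C57BL/6J of 24 months, whereas the study's text names C57BL/6 and gives ages that differ from the labels and between its own sections. Age and substrain therefore cannot be told apart. HFD was the 58y1 diet, with 60% of its energy from fat, for 9 weeks. ND was a Teklad global chow in the labels and the lower-fat 58Y2 diet in the study's text. No mutation or transgene was named for any mouse beyond its substrain, and genetic differences between the substrains were not examined. All groups shared the collagenase perfusion, the Percoll gradient and the capture of polyA RNA. Hepatocytes of all zones were pooled in each library, so fewer periportal cells and less periportal RNA per cell cannot be told apart.

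Blood enters the liver lobule at the portal vein and leaves at the central vein, so that oxygen, nutrients and hormones fall along the way. Periportal hepatocytes are known for urea synthesis, the breakdown of glutamine and other amino acids, and glucose production. Pericentral hepatocytes are known for glutamine synthesis and much of the metabolism of drugs. Wnt signals from endothelial cells of the central vein maintain the pericentral program through beta-catenin and TCF factors.

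The 6 genes lie on 5 chromosomes of GRCm38 (mm10). Cyp2f2 (ENSMUSG00000052974), a cytochrome P450 that oxidizes small foreign compounds such as naphthalene, lies on chromosome 7 from 27119909 to 27133660. Gls2 (ENSMUSG00000044005), the liver glutaminase that frees ammonia from glutamine, lies on chromosome 10 from 128194457 to 128210004. Hsd17b6 (ENSMUSG00000025396), a dehydrogenase of steroids and retinol, lies on the minus strand of the same chromosome from 127990936 to 128007611. Etnppl (ENSMUSG00000019232), which breaks down phosphoethanolamine, lies on chromosome 3 from 130617448 to 130637521. Aldh1b1 (ENSMUSG00000035561), a mitochondrial aldehyde dehydrogenase, lies on chromosome 4 from 45799022 to 45804604. Pigr (ENSMUSG00000026417), the receptor that carries polymeric immunoglobulin A across epithelial cells, lies on chromosome 1 from 130826684 to 130852249. The antisense gene Gm15883 lies inside the span of Cyp2f2, and the coding gene Spryd4 overlaps the last bases of Gls2 on the opposite strand. Whether counting used strand was not given in the sources used here, so reads of these pairs cannot be told apart.

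Promoter sequence from RefSeq (GRCm38.p6) was used for 5 of the 6 genes, all but Gls2. It is shown for Cyp2f2 and Etnppl, which passed the test between old HFD and young ND, and for Aldh1b1, whose levels ran the other way. Only bases before both the RefSeq and the GENCODE start are printed. Capitals mark the single motif found. The Cyp2f2 stretch is chr7:27119705-27119908, the Etnppl stretch chr3:130617198-130617447 and the Aldh1b1 stretch chr4:45798772-45799021, all on the plus strand of that build.
Cyp2f2: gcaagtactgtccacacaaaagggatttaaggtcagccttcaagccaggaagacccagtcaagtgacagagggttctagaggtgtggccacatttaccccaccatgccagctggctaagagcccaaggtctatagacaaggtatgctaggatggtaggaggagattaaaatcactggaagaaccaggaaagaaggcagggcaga
Etnppl: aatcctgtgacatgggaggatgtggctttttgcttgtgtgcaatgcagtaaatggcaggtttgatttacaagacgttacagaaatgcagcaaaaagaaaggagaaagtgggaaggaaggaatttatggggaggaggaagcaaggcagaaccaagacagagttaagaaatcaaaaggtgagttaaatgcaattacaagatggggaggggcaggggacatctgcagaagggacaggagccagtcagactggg
Aldh1b1: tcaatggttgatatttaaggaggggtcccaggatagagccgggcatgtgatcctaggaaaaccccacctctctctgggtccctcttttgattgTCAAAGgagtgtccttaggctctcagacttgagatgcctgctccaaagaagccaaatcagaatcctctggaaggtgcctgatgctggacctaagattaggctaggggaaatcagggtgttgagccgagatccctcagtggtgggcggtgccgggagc
In windows from 250 bases before to 50 after the RefSeq start, 3 motifs were searched on both strands. They were CTTTGA, a core bound by TCF/LEF factors, AAAGTCC, a core bound by HNF4, and TATAAA, the TATA box, and no matches overlapped. The single match was CTTTGA on the opposite strand of the Aldh1b1 window, and 16.02% of 32544 promoter windows held that motif on either strand. AAAGTCC was in 4.23% and TATAAA in 13.6% of all windows, and neither was in a window of these 5 genes. A match is a run of letters and not a site of binding.

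Depth and cell make-up differed between the groups. Counts on genes were 15134973 to 22185069 per mouse in young ND and 9200332 to 13517632 in old HFD. The labels put the mice in 2 batches, without saying what was batched, each with 3 mice of every group except old ND, which had 2 in batch 1 and 4 in batch 2. Hepatocyte markers such as Alb were abundant in all 24 libraries. Of 8 cholangiocyte markers, Krt19, Krt7, Epcam, Cftr and Sctr had too few counts to be tested, and their highest values were 3.92, 1.47, 1.03, 0.212 and 0.159 CPM (counts scaled to library size). The summed level of 12 immune cell markers was 2.01 to 57.9 CPM in young ND and 48.5 to 858 in old ND. For 8 markers of sinusoidal endothelium it was 13.2 to 131 CPM in young ND and 27.3 to 569 in old HFD. Old ND replicate 4 stood apart, with 30.6% of its counts from mitochondrial genes and the lowest summed hepatocyte markers, 57910 CPM against 76454 or more in every other mouse. Old HFD replicates 4 and 6 followed with 21.8% and 19.1% mitochondrial counts, and no other library exceeded 12.8%. Member counts, and the values and list counts that moved most, are also given without these 3 libraries.

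Per length, Cyp2f2 and Pigr were the most abundant of the 6 genes. On the FPKM scale, which divides by transcript length and which the authors adjusted between batches, young ND mice had means of 80.9 for Cyp2f2 and 73.4 for Pigr. Gls2 followed at 19.8 FPKM, Etnppl at 8.22, Aldh1b1 at 5.84 and Hsd17b6 at 4.49. In old HFD the order was Pigr at 88.0 FPKM, Cyp2f2 at 41.6, Gls2 at 12.4, Aldh1b1 at 9.33, Hsd17b6 at 3.59 and Etnppl at 1.63. Etnppl thus moved from the fourth to the lowest place, but its old HFD mice ranged from 0.362 to 4.73 FPKM and overlapped the 1.05 to 6.90 of Hsd17b6. Young ND replicate 3 had an FPKM total of 982628, against 446860 or less in every other mouse, so order across genes was read from all 6 mice and the tests used counts.

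**Figure D1:**
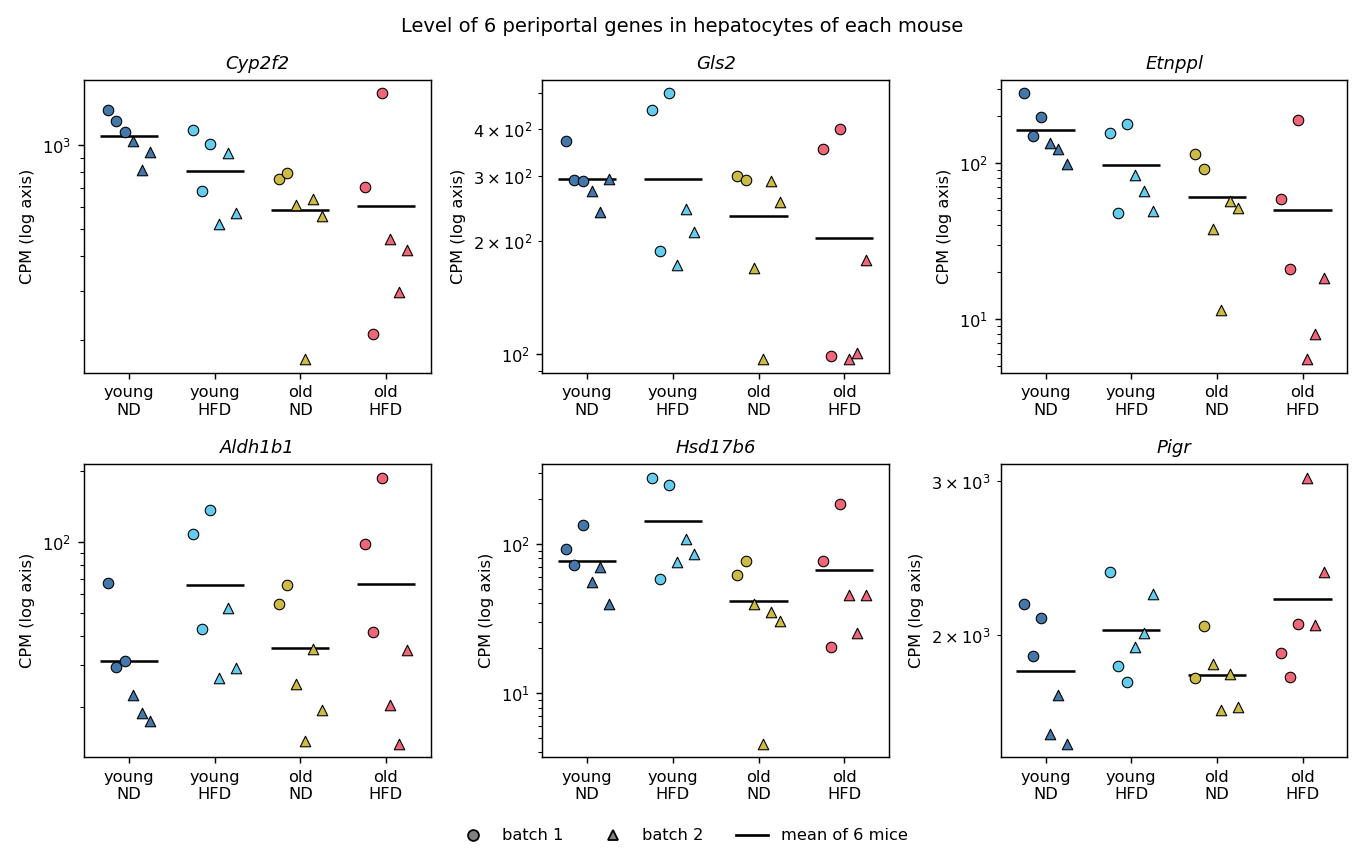
CPM (counts scaled to library size, log axis) of the 6 genes in each mouse by group, with batch 1 as circles, batch 2 as triangles and the mean of 6 mice as a line. Etnppl ran from 99.2 to 283 CPM in young ND and from 5.53 to 191 in old HFD, whereas Pigr stayed between 1501 and 3026 CPM in all mice.

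Etnppl had the lowest levels in old HFD. Replicates 1 to 6 of young ND had 283, 149, 198, 136, 123 and 99.2 CPM, and those of young HFD had 156, 47.9, 180, 84.0, 66.8 and 49.5. In old ND the values were 114, 91.7, 37.8, 11.4, 57.1 and 51.4 CPM, and in old HFD 58.8, 21.1, 191, 5.53, 8.05 and 18.4. In old HFD, 5 of 6 mice lay below every young ND mouse, and replicate 3 lay inside the young ND range. Young ND averaged 165 ± 66.5 CPM (SD, n = 6), young HFD 97.4 ± 56.8, old HFD 50.4 ± 71.4 and old ND 60.6 ± 37.0. In old HFD against young ND, Etnppl fell by 2.17 on the log2 scale or 4.49-fold (standard error 0.51, adjusted p = 0.00358 edgeR quasi-likelihood test, Benjamini-Hochberg over all genes tested). The difference of log2 means was -1.71 in batch 1 and -3.64 in batch 2. Neighbouring groups did not pass the test. The log2 fold change was -0.79 (2 standard errors each way, -1.74 to 0.16) for young HFD against young ND. It was -1.33 (-2.29 to -0.37) for old ND against young ND and -0.84 (-1.84 to 0.16) for old HFD against old ND. Their edgeR adjusted p-values were 0.357, 0.087 and 0.334, and that of old HFD against young HFD (-1.38, -2.37 to -0.39) was 0.125.

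The call for Etnppl in old HFD against young ND held in all 24 fits that left out 1 mouse, with log2 fold changes from -2.94 to -1.88. It also held without the 3 libraries highest in mitochondrial counts, at -1.72 (edgeR adjusted p = 0.0235). Without a batch term it was -1.71 and missed the threshold at an edgeR adjusted p of 0.057. Old HFD replicate 3 decided the call in 3 other comparisons of this gene, but not in young HFD against young ND (edgeR adjusted p of 0.23 or more whichever mouse was left out). Without it, Etnppl was also called in old HFD against old ND (-1.60, edgeR adjusted p = 0.0248), in old ND against young ND (-1.34, edgeR adjusted p = 0.023) and in old HFD against young HFD (-2.19, edgeR adjusted p = 0.00832). That mouse had 10.03% mitochondrial counts and 138976 CPM of summed hepatocyte markers, the highest of its group, and their part in its values was not tested.

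Cyp2f2 fell between old HFD and young ND, and no comparison of ages within a diet passed the test. Young ND replicates had 1340, 1215, 1113, 1035, 818 and 942 CPM, and young HFD replicates 1130, 686, 1008, 522, 934 and 573. Old ND replicates had 756, 793, 609, 171, 641 and 558 CPM, and old HFD replicates 709, 210, 1536, 461, 297 and 420. All 6 old ND mice lay below all 6 young ND mice, as was so for 1.72% of all genes tested. In old HFD 5 of 6 mice lay below young ND, and replicate 3 lay above every young ND mouse. Young ND averaged 1077 ± 188 CPM (SD, n = 6), young HFD 809 ± 249, old HFD 605 ± 486 and old ND 588 ± 223. In old HFD against young ND, Cyp2f2 fell by 0.90 on the log2 scale or 1.87-fold (standard error 0.32, edgeR adjusted p = 0.0374). The difference of log2 means was -0.99 in batch 1 and -1.26 in batch 2. Old ND against young ND gave -0.79 (standard error 0.32, edgeR adjusted p = 0.136), which did not pass although the groups did not overlap. Old HFD against young HFD gave -0.48 (2 standard errors each way, -1.12 to 0.16, edgeR adjusted p = 0.396). There, old HFD replicate 3 lay above every young HFD mouse. Fits that left out 1 mouse gave -0.89 to -0.30 in this comparison, with edgeR adjusted p-values from 0.065 to 0.63. Old HFD against old ND gave -0.11 (2 standard errors each way, -0.76 to 0.54).

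The Cyp2f2 call was close to the threshold. It held in 12 of 24 fits that left out 1 mouse, with log2 fold changes from -1.27 to -0.72 and adjusted p-values from 0.00305 to 0.0875. Among the 12 lost, the calls without young ND replicates 1, 2, 4, 5 or 6 had edgeR adjusted p-values of 0.0564, 0.05, 0.0692, 0.0506 and 0.0583. Without old HFD replicates 1, 2, 4, 5 or 6 they were 0.0521, 0.0619, 0.0723, 0.0875 and 0.0683, and without young HFD replicate 1 or old ND replicate 2 they were 0.0514 and 0.0527. Without the 3 libraries highest in mitochondrial counts the value was -0.85 (edgeR adjusted p = 0.0823).

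Gls2, the step that opens glutamine breakdown, had wide ranges in every group but young ND. Its young ND replicates had 372, 293, 291, 273, 239 and 294 CPM. Young HFD replicates had 449, 188, 500, 173, 245 and 212 CPM, so 3 lay below and 2 above every young ND mouse. Old ND replicates had 300, 292, 170, 97.0, 290 and 255 CPM, and old HFD replicates 354, 98.4, 400, 96.5, 100 and 178. Old HFD fell into a pair at 354 and 400 CPM and 4 mice below all young ND mice. The log2 fold change of old HFD against young ND was -0.63 (standard error 0.30, edgeR adjusted p = 0.107), and without old HFD replicate 3 it was -0.81 (edgeR adjusted p = 0.042). With the 3 libraries highest in mitochondrial counts left out it was -0.54 (edgeR adjusted p = 0.232). The difference of log2 means was -0.40 in batch 1 and -1.16 in batch 2, and other settings gave -1.10 to -0.19. The other 4 group comparisons gave -0.07 to -0.56, with edgeR adjusted p-values from 0.275 to 0.929.

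Aldh1b1 was higher in young HFD than in young ND in every setting tried, as was Hsd17b6, though it passed the test in few of them. Young ND replicates had 67.4, 29.5, 31.4, 22.5, 18.8 and 17.4 CPM, and young HFD replicates 108, 42.8, 136, 26.5, 52.6 and 29.2. Old ND replicates had 54.4, 65.6, 25.0, 14.3, 35.03 and 19.4 CPM, and old HFD replicates 98.3, 41.5, 188, 20.4, 13.95 and 34.9. All 4 groups overlapped, and within each group the mice of batch 1 were mostly the higher ones. The log2 fold change of young HFD against young ND was 1.01, or 2.02-fold (standard error 0.34, edgeR adjusted p = 0.0892), 1.11 in batch 1 and 0.82 in batch 2. DESeq2 with batch called it (1.03, adjusted p = 0.0297), as did edgeR on the 2 groups alone (1.05, adjusted p = 0.02). Old HFD against young ND gave 0.83 (standard error 0.34, edgeR adjusted p = 0.0676), and DESeq2 gave 0.87 (adjusted p = 0.0356). The difference of log2 means was 1.20 in batch 1 but 0.14 in batch 2. This comparison was called without old HFD replicate 2 (0.98, edgeR adjusted p = 0.0363) and without old HFD replicate 5 (1.03, edgeR adjusted p = 0.0232). All 24 fits that left out 1 mouse gave 0.48 to 1.03, with edgeR adjusted p-values up to 0.231. Other settings gave 0.25 to 1.33. With the 3 libraries highest in mitochondrial counts left out, the same comparison gave 0.94 (edgeR adjusted p = 0.094) and young HFD against young ND gave 1.03 (edgeR adjusted p = 0.0699).

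Hsd17b6 had its highest mean in young HFD, and no comparison of groups passed the test. Its replicates there had 278, 58.3, 249, 76.0, 107 and 85.1 CPM, against 92.8, 72.5, 133, 55.4, 69.4 and 39.3 in young ND. Old ND replicates had 61.6, 77.2, 39.2, 4.58, 35.2 and 30.4 CPM, and old HFD replicates 76.8, 20.3, 186, 45.1, 25.4 and 45.4. The 4 groups overlapped, and the value of old ND replicate 4 was far below the rest of its group. Old HFD against young HFD gave a log2 fold change of -1.13 (standard error 0.42, edgeR adjusted p = 0.138), -1.53 without old HFD replicate 3 (edgeR adjusted p = 0.0384) and -1.21 without the 3 libraries highest in mitochondrial counts (edgeR adjusted p = 0.149). Young HFD against young ND gave 0.84 (standard error 0.42, edgeR adjusted p = 0.257), and old ND against young ND gave -0.79 (standard error 0.42, edgeR adjusted p = 0.283).

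Pigr had the narrowest range of the 6 genes within each group. Young ND replicates had 2167, 1894, 2093, 1541, 1707 and 1501 CPM, and young HFD replicates 2363, 1841, 1765, 1937, 2010 and 2227. Old ND replicates had 1787, 2049, 1851, 1643, 1804 and 1654 CPM, and old HFD replicates 1907, 1789, 2056, 3026, 2050 and 2361. The 4 groups overlapped, and old HFD replicate 4, with 21.8% mitochondrial counts, was the highest of all mice. The highest mouse of a group was 1.25 to 1.69 times the lowest for Pigr, against 2.85 to 34.5 times for Etnppl. The log2 fold change of old HFD against young ND was 0.28 (2 standard errors each way, 0.0049 to 0.55). Its edgeR p was 0.0528 unadjusted and 0.123 adjusted. The difference of log2 means was -0.10 in batch 1 and 0.63 in batch 2. Old HFD against old ND gave 0.29 (2 standard errors each way, 0.02 to 0.56, edgeR adjusted p = 0.213). Leaving out the 3 libraries highest in mitochondrial counts, these became 0.08 (edgeR adjusted p = 0.673) and 0.03 (edgeR adjusted p = 0.896).

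**Figure D2:**
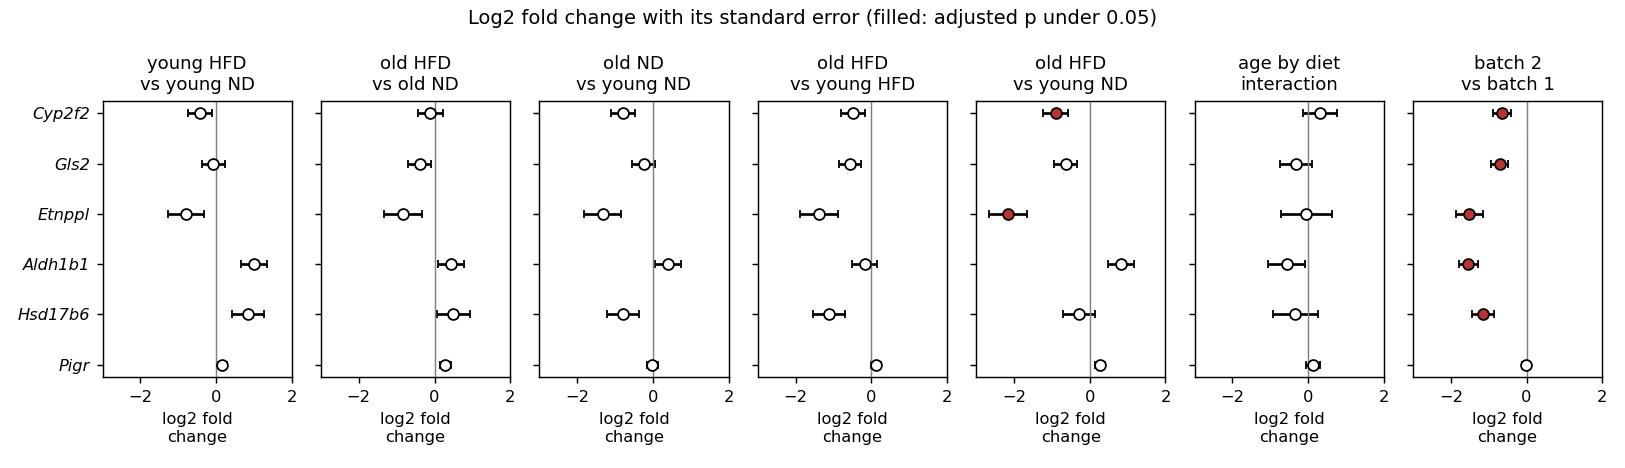
Log2 fold change of each gene in 6 comparisons of the groups and between batches, with bars of 1 standard error and filled points for an adjusted p under 0.05. Only Cyp2f2 and Etnppl are filled among the comparisons of groups, both in old HFD vs young ND, whereas 5 of 6 genes are filled and lower in batch 2.

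Counted together, 0 of 6 genes were called between young HFD and young ND, where 3.5% of all genes tested were called by edgeR. At an unadjusted p under 0.05 there was 1 member, and DESeq2 called 1, where it called 8.23% of its genes. For old HFD against old ND it was 0 of 6, against 3.01% of all genes, with 1 member at an unadjusted p under 0.05 and 0 called by DESeq2. Old ND against young ND gave 0 of 6, against 8.5%, with 2 at an unadjusted p under 0.05 and 0 by DESeq2. Old HFD against young HFD gave 0 of 6, against 2.24%, again with 2 at an unadjusted p under 0.05 and 0 by DESeq2. Over all genes, 2848 to 3020 of 13583 had an unadjusted p under 0.05 in these 4 comparisons, so 1 or 2 of 6 members was near the background. Old HFD against young ND gave 2 of 6, or 33.3%, against 30.2% of all genes, so the share was near the background. Both were lower in old HFD, the direction of 12.9% of all genes tested. DESeq2 called 3 there, where it called 27.2% of its genes, and edgeR called 1 without the 3 libraries highest in mitochondrial counts, where it called 19.8% of all genes. The median log2 fold change over the 6 was -0.46 in that comparison, against 0.04 over all genes. The age by diet interaction called 0 of 6 by edgeR and by DESeq2, with 0 at an unadjusted p under 0.05 and 0% of all genes called by edgeR. Etnppl had an interaction estimate of -0.05 (2 standard errors each way, -1.41 to 1.32), which leaves room for large differences in either direction. The comparisons share groups, so their counts are not independent.

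Most of these genes also differed between the labelled batches, a comparison of all 24 mice with smaller errors than those of 6 against 6. Between batch 2 and batch 1, 5 of 6 members were called, all lower in batch 2, where 32.2% of all genes tested were called and 14.2% were called lower. The log2 fold change was -1.53 for Aldh1b1 (edgeR adjusted p = 0.000131), -1.51 for Etnppl (edgeR adjusted p = 0.00272) and -1.15 for Hsd17b6 (edgeR adjusted p = 0.00572). For Gls2 it was -0.71 (edgeR adjusted p = 0.0139), for Cyp2f2 -0.64 (edgeR adjusted p = 0.0347) and for Pigr -0.02 (edgeR adjusted p = 0.888). Without the 3 libraries highest in mitochondrial counts, all from batch 2, 3 of 6 were called where 17.9% of all genes were, with Cyp2f2 at -0.54 (edgeR adjusted p = 0.115) and Gls2 at -0.60 (edgeR adjusted p = 0.0625). All 8 endothelial markers and 6 of 8 stellate markers were higher in batch 2, with median log2 fold changes of 2.41 and 2.30. Of 7 hepatocyte markers 0 were called higher and 1 lower, with a median of -0.08. Their part in the batch difference was not tested.

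Mice that were high in 1 of the 5 genes other than Pigr tended to be high in the other 4. Old HFD replicate 3 had the highest value of its group for these 5 genes, and old ND replicate 4 had the lowest value of its group for all 6. After the means of group and batch were taken from log2 CPM, old HFD replicate 3 lay above them by 2.25 for Etnppl, 1.38 for Hsd17b6, 1.37 for Cyp2f2, 1.35 for Aldh1b1 and 0.90 for Gls2, and by -0.08 for Pigr. Old HFD replicate 2 and young HFD replicate 2 lay on the other side, at -1.81 and -1.54 for Hsd17b6. Across the 24 mice, the 10 pairs among these 5 genes had Pearson's r from 0.71 to 0.89 and Spearman's rho from 0.51 to 0.83. Adjusted over the 15 pairs of all 6 genes, the p of r was at most 9e-05 and that of rho at most 0.0174 (two-sided permutation test with 100000 permutations, whose smallest raw p is 1e-05). Without the 2 mice farthest from the median of 1 gene of each pair, chosen anew for each pair, r was 0.60 to 0.85. Within batches, r was 0.80 to 0.94 in batch 1 and 0.59 to 0.91 in batch 2.

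Pigr stood outside this pattern. Its 5 pairs with the other members had r from -0.16 to 0.37 and rho from -0.14 to 0.37, and the smallest adjusted p was 0.106 for r and 0.101 for rho (permutation test). As a description of the same libraries, an r with Cyp2f2 at least as high as that of Hsd17b6 was found in 0.0442% of all other genes, as that of Gls2 in 0.258%, of Aldh1b1 in 0.788%, of Etnppl in 1.04% and of Pigr in 32.4%. Genes in 1 library share its depth and its mix of cells, so these values are not independent of each other.

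**Figure D3:**
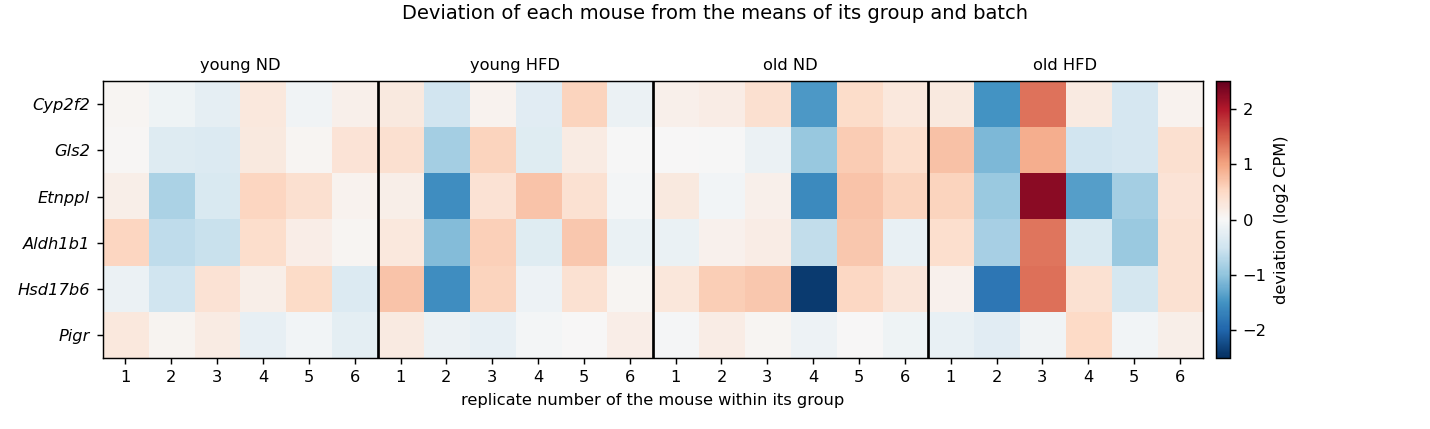
Deviation of log2 CPM from the means of group and batch for the 6 genes (rows) in each of the 24 mice (columns, by replicate number within a group), red above and blue below the means. Old HFD replicate 3 is red and old ND replicate 4, old HFD replicate 2 and young HFD replicate 2 are blue in the 5 rows other than Pigr.

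The same deviations were compared with 8 measures of the libraries, giving 48 relations. Summed hepatocyte markers moved with Hsd17b6 (r = 0.78, rho = 0.76, permutation test, adjusted p = 0.00144 for r and 0.00096 for rho) and with Cyp2f2 (r = 0.77, rho = 0.76, permutation test, adjusted p = 0.00168 and 0.00096). Without the 2 mice farthest from the median of the library measure, chosen anew for each measure, r was 0.69 for both. For Gls2, Etnppl and Aldh1b1 the r with these markers was 0.56, 0.54 and 0.50, with adjusted p-values of 0.0646, 0.0735 and 0.0811 (permutation test). Pigr and the share of mitochondrial counts had an r of 0.53 (rho = 0.54, permutation test, adjusted p = 0.0708 and 0.0852), and 0.69 without the 2 farthest mice. Summed immune, endothelial and stellate markers had an r of -0.14 to 0.32 with the 6 genes. Without the 2 farthest mice these were -0.09 to 0.46, and endothelial markers then had an r of 0.46 with Hsd17b6, 0.38 with Pigr, 0.36 with Cyp2f2, 0.34 with Gls2, 0.34 with Aldh1b1 and 0.03 with Etnppl. Plasma cell markers had an r of 0.55 with Aldh1b1 (permutation test, adjusted p = 0.0659) and 0.41 without the 2 farthest mice. Alb, the most abundant of the hepatocyte markers, is also among the further periportal genes described next, and its own r was 0.78 with both Hsd17b6 and Cyp2f2, so these measures are not separate. What these relations contribute to the group differences was not tested.

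Other genes of the lobule were taken from hand-written lists. Of 20 further periportal genes, 5 were lower and 2 higher in old HFD mice than in young ND, with a median log2 fold change of -0.35. Cdh1, which encodes E-cadherin, fell by 2.27 on the log2 scale (standard error 0.50, edgeR adjusted p = 0.00255). Apof, which encodes an apolipoprotein, rose by 0.54 (standard error 0.11, edgeR adjusted p = 0.00183). Of 24 pericentral genes, 11 were higher and 2 lower, with a median of 0.57. Glul, the glutamine synthetase, rose by 1.56 (standard error 0.29, edgeR adjusted p = 0.000732), with 354 ± 44.5 CPM in young ND mice and 1307 ± 923 in those of old HFD (SD, n = 6). Slc22a3, an organic cation transporter, rose by 2.16 (edgeR adjusted p = 0.000112), and the P450 Cyp1a2 fell by 0.94 (edgeR adjusted p = 0.00285). Over all genes tested, 17.3% were called higher and 12.9% called lower in this comparison. Without the 3 libraries highest in mitochondrial counts, 6 of the further periportal and 14 of the pericentral genes were called, where the share over all genes was 19.8%.

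In the other comparisons fewer genes of these lists were called, where the shares over all genes were the 3.5%, 3.01%, 8.5% and 2.24% given above. Between young HFD and young ND, 3 pericentral genes were higher and 1 lower (median 0.41), with Glul at 1.14 (edgeR adjusted p = 0.0267), and 0 further periportal genes were higher and 1 lower (median -0.09). Old HFD against old ND gave 2 higher and 0 lower pericentral genes (median 0.46), and 1 higher and 0 lower periportal genes (median -0.11). Old ND against young ND gave 4 higher and 0 lower pericentral genes (median 0.28), and 0 higher and 3 lower periportal genes (median -0.22). Old HFD against young HFD gave 1 higher and 0 lower pericentral genes (median 0.24), and 0 higher and 1 lower periportal genes (median -0.18). With the 3 libraries highest in mitochondrial counts left out, the pericentral genes called were 7 in young HFD against young ND, 6 in old HFD against old ND, 1 in old ND against young ND and 0 in old HFD against young HFD. The further periportal genes called were then 1, 1, 1 and 0 in the same order, and the shares over all genes were 7.17%, 3.39%, 5.19% and 0.571%. Of 5 midlobular genes, 1 was higher and 2 were lower in old HFD mice than in young ND, and 1 was called with those libraries left out.

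**Figure D4:**
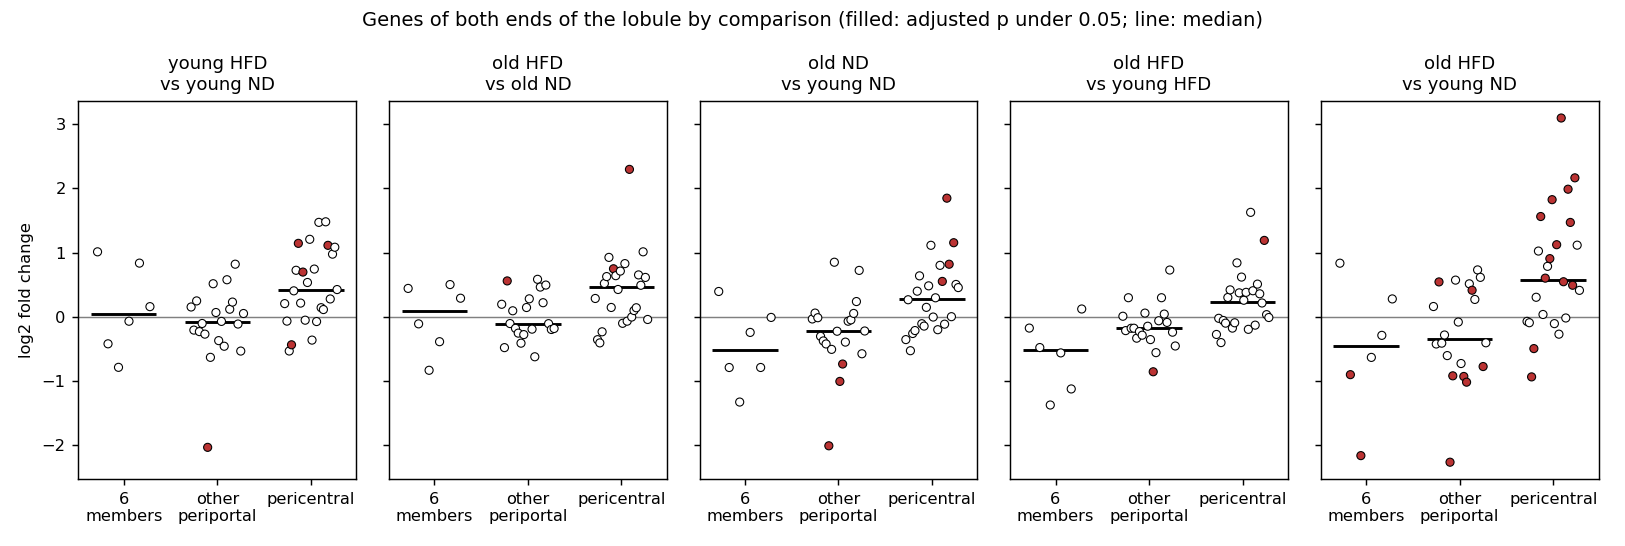
Log2 fold change of the 6 members, 20 other periportal genes and 24 pericentral genes in 5 comparisons of the groups, with filled points for an adjusted p under 0.05 and a line at the median. In old HFD vs young ND the medians were -0.46, -0.35 and 0.57.

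Between mice, the 5 covarying members also moved with other periportal genes. The median r of deviations with the 20 other periportal genes was 0.53 for Cyp2f2, 0.57 for Gls2, 0.62 for Etnppl, 0.53 for Aldh1b1 and 0.54 for Hsd17b6, and 0.08 for Pigr. The median over all genes tested lay between 0.01 and 0.07 for each of the 6. With the 24 pericentral genes the median r was -0.26, -0.19, -0.13, -0.25 and -0.32 in the same order, and -0.30 for Pigr. Hal, the histidine ammonia-lyase of histidine breakdown, had the highest r with all 5, from 0.83 with Hsd17b6 to 0.90 with Gls2. Cyp7a1, the rate-limiting enzyme of bile acid synthesis and here among the pericentral genes, ran the other way from its list, with an r of 0.65 with Gls2. Hal and Cyp7a1 were singled out after their values were seen. All of these correlations are over 24 mice and between genes of the same libraries, and are given without a test.

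**Figure D5:**
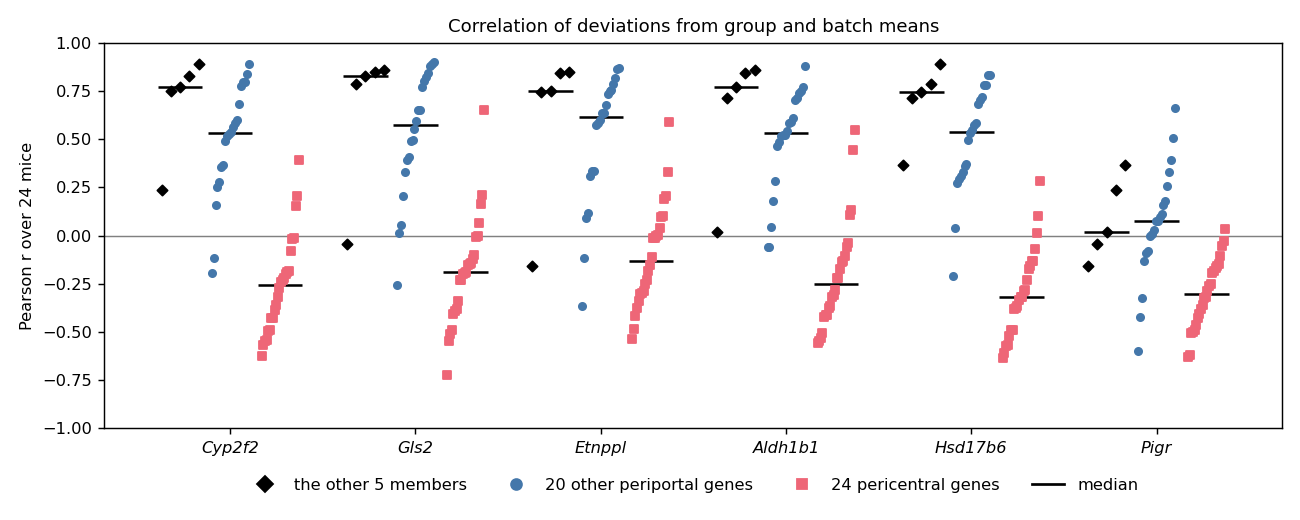
Pearson's r of deviations from group and batch means over 24 mice, between each member and the other 5 members (diamonds), 20 other periportal genes (circles) and 24 pericentral genes (squares), with lines at the medians. For the 5 members other than Pigr, the median r was 0.53 to 0.62 with periportal and -0.32 to -0.13 with pericentral genes.

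Among all genes with an average of at least 1 log2 CPM, those most like each member over the 24 mice were found by Pearson's r of log2 CPM, which here includes group and batch. For Etnppl they were Hal (r = 0.94), Ak4 (0.92) and Gldc (0.91), and for Gls2 Hal (0.91), Uroc1 (0.91) and Tiam2 (0.91). For Cyp2f2 they were Naaladl2 (r = 0.91), Hal (0.89) and its own antisense gene Gm15883 (0.89), whose reads may be those of Cyp2f2. For Hsd17b6 they were Ncam2 (r = 0.91), Hsd11b1 (0.87) and Cyp4v3 (0.86), and for Aldh1b1 Olfm3 (0.88), Abhd2 (0.84) and Iyd (0.83). Pigr had lower values, with BC023105 (r = 0.73), Vps50 (0.68) and Sult5a1 (0.66). On deviations from group and batch means the r of Hal was 0.89 with Cyp2f2, 0.90 with Gls2 and 0.87 with Etnppl.

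The pathways around each member gave further values. In old HFD against young ND, 30.2% of all genes tested were called, 17.3% higher and 12.9% lower. Without the 3 libraries highest in mitochondrial counts it was 19.8%. List counts below that are near these shares do not stand out from all genes. Of 15 genes of glutamine and ammonia handling, Gls2 included, 4 were higher and 2 lower in old HFD mice than in young ND. Some of the 15, Glul and Slc1a2 among them, are also in the zonation lists, so the counts are not separate. Nags, which makes the activator of the first urea cycle enzyme, fell by 0.55 (edgeR adjusted p = 0.00364). Slc1a2, a glutamate transporter of pericentral hepatocytes, rose by 1.47 (edgeR adjusted p = 0.000435).

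Of 12 genes of ethanolamine and phosphatidylethanolamine, Etnppl included, 0 were higher and 5 lower in old HFD mice than in young ND. Sgpl1, the lyase that yields phosphoethanolamine from sphingosine phosphate, fell by 0.77 (edgeR adjusted p = 0.00156), from 98.0 ± 12.7 CPM (SD, n = 6) to 57.7 ± 15.4. The ethanolamine kinase Etnk1 fell by 0.59 (edgeR adjusted p = 0.0109), whereas Etnk2 gave 0.10 (edgeR adjusted p = 0.691). Phykpl, the closest relative of Etnppl, gave -0.21 (edgeR adjusted p = 0.271). With the 3 libraries highest in mitochondrial counts left out, 3 of the 12 were called.

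Of 13 tested aldehyde dehydrogenases, 0 were higher and 3 lower in old HFD mice than in young ND, Aldh5a1 falling by 0.51 (edgeR adjusted p = 0.0135). Aldh2, the main mitochondrial aldehyde dehydrogenase, gave -0.38 (edgeR adjusted p = 0.0756) and Aldh1a1 -0.07 (edgeR adjusted p = 0.822), where Aldh1b1 gave 0.83. Aldh1a1 is also among the pericentral genes. With the same 3 libraries left out, 1 of the list was called. Of 9 tested retinol and steroid dehydrogenases, Rdh5 rose by 0.73 (edgeR adjusted p = 0.00292) and 0 fell, and 2 were called with those 3 libraries left out. Rdh7, Rdh9 and Rdh16 gave -0.03, 0.26 and 0.08, with edgeR adjusted p-values of 0.886, 0.418 and 0.829.

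Of 9 tested Cyp2 genes of the locus that holds Cyp2f2, 5 were higher and 2 lower in old HFD mice than in young ND. Cyp2b9 rose by 7.66 on the log2 scale (standard error 0.81, edgeR adjusted p = 4.08e-06), from 0.303 ± 0.300 CPM (SD, n = 6) to 68.1 ± 47.0. Cyp2b10 fell by 2.96 (standard error 0.53, edgeR adjusted p = 0.000558), and Cyp2f2 was the other gene lower. In young HFD against young ND, 4 of the 9 were higher and 1 lower, where 3.5% of all genes tested were called. Again Cyp2b9 was higher (7.67, edgeR adjusted p = 5.75e-06) and Cyp2b10 lower (-3.05, edgeR adjusted p = 0.00191). Genes of this family are alike in sequence, so reads may be split between them.

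Of 8 genes of polymeric immunoglobulin transport, Pigr included, 4 were tested, and 2 were higher and 0 lower in old HFD mice than in young ND. For old ND against young ND these counts were 3 and 0, where 8.5% of all genes tested were called. Jchain, the chain that joins immunoglobulin A into polymers, rose by 2.84 in old HFD against young ND (standard error 0.57, edgeR adjusted p = 0.00125) and by 2.38 in old ND against young ND (standard error 0.57, edgeR adjusted p = 0.0114). Igha, the heavy chain of immunoglobulin A, rose by 5.35 and 4.43 in the same comparisons (edgeR adjusted p = 0.000825 and 0.00845). Their levels stayed low, at 4.64 ± 4.22 CPM (SD, n = 6) for Jchain and 4.07 ± 5.15 for Igha in old HFD, and some libraries had no Igha count. Igha and Jchain are products of plasma cells, and 3 of 6 tested plasma cell markers, these included, were higher in old HFD mice than in young ND. In old HFD against young ND all 9 tested immune markers, all 8 endothelial and 6 of 8 stellate markers were higher, with median log2 fold changes of 3.79, 1.52 and 1.81. Leaving out the 3 libraries highest in mitochondrial counts, 7 immune, 1 endothelial and 2 stellate markers were called. The part of these cells in the levels of the 6 genes was not tested.

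Of 14 tested regulators of zonation, 3 were higher and 2 lower in old HFD mice than in young ND. Over all genes tested, 30.2% were called there. With the 3 libraries highest in mitochondrial counts left out, 3 were called, where the share over all genes was 19.8%. Some of these regulators are also among the pericentral genes, so the counts are not separate. Wnt2, a Wnt ligand made by sinusoidal endothelium, rose by 2.12 (standard error 0.50, edgeR adjusted p = 0.00377), beside the rise of endothelial markers given above. Hnf4a, a transcription factor of hepatocytes, fell by 0.73 (standard error 0.18, edgeR adjusted p = 0.00534).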

How the data were processed

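RNA of hepatocytes from 24 mice was sequenced. Per the study's methods and the submitters' processing notes, the authors checked reads with FastQC 0.11.8, aligned them to mm10 with STAR 2.7.3a and counted them per gene with HTSeq 0.11.2. The deposited counts are whole numbers and were not normalized. The authors also deposited FPKM values for 37789 genes, made with CuffLinks and, by the name of that table, adjusted between batches. Strand and duplicate handling are not given in the sources used here.

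Groups and batches were taken from the labels. Genes with low counts were removed with edgeR's filterByExpr, which left 13583 of 55421. Counts were TMM-scaled and tested with edgeR 4.0.16 (quasi-likelihood, group plus batch, all 24 mice, R 4.3.3) at a Benjamini-Hochberg adjusted p under 0.05. Intervals are the log2 fold change plus and minus 2 standard errors. They describe the uncertainty of the estimate and not the range of the mice. Such an interval can leave out 0 where the unadjusted p is above 0.05. Alternatives used DESeq2 1.42.0 and limma 3.58.1. Relations between mice used scipy 1.17.1 on log2 CPM (prior count 2). The script was tested on simulated data. Total counts of 9200332 to 22185069 set the depth.

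The 6 genes and all lists were chosen with earlier results of these data known. Named genes are the members, the called gene with the smallest adjusted p in each direction of a list, the closest relatives or partners of members, cell type markers, and the 3 genes most like each member. Lists covered lobule zones, regulators, pathways of the members and markers of hepatocytes, cholangiocytes, immune, endothelial, stellate and plasma cells. The comparison between batches and the fits without 3 libraries were added after the data were seen.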

Additional observations from a re-analysis of the deposited data

Results flagged for a closer look

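In each group of 6 mice, the gap between the lowest or highest mouse and its neighbour was set against the whole range on the log2 scale, for 24 sets of 1 gene in 1 group. Chance alone would pass about 1 in 20 such sets. Cyp2f2 in old ND replicate 4 was 171 CPM, against 558 to 793 in the other 5 mice, with a gap of 0.77 of the range. Hsd17b6 in the same mouse was 4.58 CPM, against 30.4 to 77.2, with a gap of 0.668. Both gaps exceed Dixon's 95% critical value for 6 mice. This library also had 30.6% mitochondrial counts, 57910 CPM of hepatocyte markers and 858 CPM of immune markers. The part of these in the 2 values was not tested.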

How the results depend on the processing

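Depth ranged from 9200332 to 22185069 counts, and all old HFD libraries were below the rest. Main and other fits called different numbers of members. Without a count filter, which tested 32336 genes, 3 members were called in young HFD vs young ND, 1 in old HFD vs old ND, 3 in old ND vs young ND, 3 in old HFD vs young HFD and 4 in old HFD vs young ND, where 4.56%, 3.43%, 6.35%, 3.82% and 14.3% of all genes were called. The fit without a count filter gave Etnppl an edgeR adjusted p of 3.18e-05 in old HFD vs old ND, against 0.334 in the main fit. The reason for this gap was not tested. DESeq2 called 1 in young HFD vs young ND. Fits on the mice of the 2 groups alone called 1 in young HFD vs young ND, 1 in old ND vs young ND and 1 in old HFD vs young ND, where 18.6%, 10.8% and 17.4% of all genes were called. For old HFD vs young ND, where 2 were called, edgeR without batch called 0 (DESeq2 with batch called 3), batch 1 alone 0, batch 2 alone 1 and the fit without the 3 libraries highest in mitochondrial counts 1, where these fits called 4.33% (batch 2 alone) to 27.2% (DESeq2) of all genes. Between batches the last fit called 3 in place of 5.

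Leaving out 1 mouse at a time gave 0 to 1 member called in young HFD vs young ND, 0 to 1 in old HFD vs old ND, 0 to 1 in old ND vs young ND, 0 to 2 in old HFD vs young HFD, 1 to 3 in old HFD vs young ND and 4 to 5 between batches. The counts of 1, 1, 1 and 2 in the first 4 came without old HFD replicate 3. Of these fits, the log2 fold change changed sign for Cyp2f2 in old HFD vs old ND (-0.47 to 0.0613) and the interaction (-0.0811 to 0.49), Gls2 in young HFD vs young ND (-0.19 to 0.0568) and Etnppl in the interaction (-0.85 to 0.20). It did so for Pigr in old ND vs young ND (-0.0631 to 0.0369), old HFD vs young HFD (-0.0056 to 0.18), the interaction (-0.0183 to 0.18) and between batches (-0.0943 to 0.0227).

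Signs also changed in other settings, all for values that were not called. Without batch, Cyp2f2 gave 0.0423 in old HFD vs old ND, Gls2 0.0034 in young HFD vs young ND, Etnppl 0.49 in the interaction and Aldh1b1 0.0038 in old HFD vs young HFD. In batch 1 alone the same 4 gave 0.0426, 0.24, 0.49 and 0.17, and Pigr gave -0.0439 in young HFD vs young ND, -0.0456 in old HFD vs old ND, -0.0816 in old HFD vs young HFD, -0.13 in old HFD vs young ND and -0.0017 in the interaction. In batch 2 alone, Aldh1b1 gave -0.0057 in old HFD vs old ND and Pigr 0.13 in old ND vs young ND. Pigr in old ND vs young ND also gave 0.0174 with RLE scaling, 0.0163 with DESeq2, 0.0662 with only the mice of both groups, 0.0016 and 0.0017 with limma on log2(FPKM + 1) and log2(FPKM + 0.1), and 0.0429 without the 3 libraries. Without them, Pigr gave -0.10 in old HFD vs young HFD and -0.14 in the interaction, and Etnppl 0.19 in the interaction. Between batches Pigr gave 0.00066 with RLE scaling and 0.0011 with DESeq2. The cause of these changes was not tested.

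Replicate numbers belong to different mice. Deviations of same-numbered mice had a mean correlation of 0.182, with 21 of 36 above 0.1, and -0.0467 once batch was removed. With the replicate block in place of batch, Cyp2f2 gave -1.01 (edgeR adjusted p = 0.0291) and Etnppl -2.40 (edgeR adjusted p = 0.00428) in old HFD vs young ND, and the block changed no member's call there.

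Counts of all genes called moved by over 1.5 times. For young HFD vs young ND, 475 became 1473 without a filter, 1213 by DESeq2, 174 without batch, 2302 on the mice of both groups, 301 by limma with a pseudocount of 1, 130 and 9 within batches and 283 with the block. For old HFD vs old ND, 409 became 1108, 1068, 266 and 15 in the first 4 of these settings, and 15 and 16 within batches. For old ND vs young ND, 1155 became 2053, 1735 and 628 in the first 3, 252 and 555 by limma, and 93 and 2 within batches. For old HFD vs young HFD, 304 became 1235, 821, 116 and 48 in the first 4, 180 and 172 by limma, 9 and 0 within batches (1992 at an unadjusted p under 0.05 in batch 2) and 131 with the block. For old HFD vs young ND, 4100 became 2094 on the mice of both groups, and 919 and 617 within batches. The interaction called 0, 587 without a filter, 7 by DESeq2 and 1 with the block.
With the 3 libraries highest in mitochondrial counts left out, the numbers were 992 for young HFD vs young ND, 718 for old ND vs young ND, 79 for old HFD vs young HFD and 2481, in place of 4380, between batches. Leaving out 1 mouse at a time gave 146 to 998 for young HFD vs young ND, 84 to 823 for old HFD vs old ND, 586 to 1592 for old ND vs young ND and 40 to 813 for old HFD vs young HFD. Between batches, Cyp2f2 was called in 17 of these 24 fits (edgeR adjusted p from 0.00683 to 0.0811).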
